A study of Rattus norvegicus with 31 samples.

Results

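The comparison set tail motor neurons taken 7 days after a complete spinal transection (group Spi-7, 5 arrays) against the same neurons of uninjured rats (group Control, 4 arrays). The members are these 9 of the 31 arrays of the series, with 1 array for each animal, and all 12913 probe sets other than the Affymetrix control sets. All animals were adult male Wistar rats. In the Spi-7 group the cord was cut at the second sacral segment, S2, after a laminectomy, with a piece of tissue removed at the cut, and the rats were given buprenorphine for the first days after surgery. The Control rats were uninjured and are not described as sham-operated. The spinal surgery and its drugs therefore cannot be told apart from the transection. At the end the cords of all animals were removed and frozen. In every group the motor neurons had been filled backwards from muscle and blood with Fluoro-Gold, a fluorescent tracer. It was given 5 to 7 days before the tissue was taken. Labelled neurons were cut by laser from 10 µm sections of segments S3 and S4, below the cut. The sample labels give between 100 and 200 neurons per animal, and the published methods give a lower minimum. The remaining groups (Spi-2, 6 arrays; Spi-21, 8; Spi-60, 8) were taken 2, 21 and 60 days after the same operation, and Spi-21 and Spi-60 come from an earlier study of the same laboratory.

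Motor neurons are the cells through which the spinal cord drives muscle, and those of the sacral cord drive the muscles of the tail. A transection above them takes away their input from the brain, including the serotonin and noradrenaline that hold them near firing threshold. It is not aimed at their own axons to the muscle, and whether those stayed whole was not examined here. In the days that follow, the muscles below the cut are limp and reflexes are weak, and spasticity appears weeks later. Neurons whose own axon is cut switch on a known set of genes, among them the transcription factor Atf3 and growth-cone proteins, and that set was one of the lists examined here.

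Each pool holds neurons with the thin shell of tissue around them, and the values are RMA summaries on a log2 scale, in which probe sets that catch no transcript also read near 5 (the median of all probe sets was 6.00 and the 10th percentile 4.99). No detection call was used, so a gene near 5 is described as low and not as absent. The array medians of the 9 animals lay between 5.99 and 6.04. One array stood apart, that of Spi-7 animal 5: its interquartile range was 1.75, against 1.95 to 2.03 for the other 8 arrays, and its highest correlation over probe sets with another Spi-7 array was 0.957, against 0.980 to 0.990 for the others. Where leaving it out ends or adds a call, this is said beside the gene. The 2 control probe sets at the ends of the Gapdh transcript also differed: the 3′ end read 2.01 ± 0.33 above the 5′ end in Control (log2, SD, n = 4) and 3.01 ± 0.37 in Spi-7 (n = 5; exact permutation test, two-sided p = 0.0317), whereas for Actb the gap was 2.89 ± 0.19 and 2.63 ± 0.68 (exact permutation p = 0.524). The Actb gap was 2.16 to 2.45 in Spi-7 animals 1 to 4, below every Control (2.76 to 3.16), and 3.83 in animal 5. The Gapdh gap of animal 5 (2.38) lay within the Control range (1.80 to 2.50). In Spi-7 animals 1 to 4 the Gapdh and Actb gaps thus went opposite ways from Control. A wider gap, as for Gapdh, is what shorter cDNA would give. Its part in the results was not tested beyond a fit with the Gapdh gap as a covariate, and calls of named genes that end there are given beside the genes.

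The pools carried motor neuron transcripts in both groups. Slc5a7, the choline transporter that feeds acetylcholine synthesis, read 11.54 ± 0.29 in Control and 10.50 ± 0.44 in Spi-7. Slc18a3, which loads acetylcholine into vesicles, read 7.25 ± 0.37 and 6.99 ± 0.42. Prph, the intermediate filament peripherin, read 12.10 ± 0.44 and 12.88 ± 0.25. Isl1, a transcription factor of developing motor neurons, was low in both groups (5.75 ± 0.19 and 5.64 ± 0.16), and Chat, the enzyme that makes acetylcholine, was not analysed here. Transcripts of astrocytes (Gja1, Aldoc) and oligodendrocytes (Cldn11, Cnp) were also well above the low end in both groups. All called values below therefore describe the pool, and in such pools fewer cells of a type and less RNA in each of them cannot be told apart.

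At day 7, 334 of the 12913 probe sets differed from Control at an adjusted p under 0.05 (limma, Benjamini-Hochberg), which is 2.59% of those tested. Of these, 216 were lower (1.67%) and 118 higher (0.914%), so that 64.7% of the calls were decreases. They name 302 genes, 191 lower and 111 higher. With 1 probe set for each of 9769 genes, 1.82% of genes were called lower and 1.05% higher. These shares are the background for the gene lists below. They are not matched for level: the median level was 6.20 for all genes and differed between lists. The lists were chosen with earlier results of these data known, so a share describes its list and is not a test. The sizes were uneven: 48 of the lower and 18 of the higher probe sets moved by 1 log2 unit or more, that is 2-fold, and the median absolute change of the called probe sets was 0.78. Without Spi-7 animal 5 the counts were 201 lower and 147 higher. In 280 of the 334 every Spi-7 animal lay on one side of every Control animal. Over all probe sets, called or not, the animals did not overlap in 704 that lay below Control (5.45%) and in 488 that lay above it (3.78%), and these shares are the background for the counts of genes whose animals did not overlap. The median change over all probe sets was -0.00, with quartiles of -0.17 and 0.13.

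The highest change of any called probe set was that of Atf3, a stress-induced transcription factor that marks neurons after axon injury. It read 5.95, 8.23, 5.52 and 6.20 in the 4 Control animals and 11.54, 10.22, 8.66, 10.15 and 7.70 in the 5 Spi-7 animals. Control animal 2 lay above Spi-7 animal 5, so the groups overlapped, while the other 4 Spi-7 animals were above all Controls. The difference was 3.18 ± 0.74 (log2, SE; 9.06-fold; adjusted p = 0.0133). Fosl1, a partner of the Jun family, did not pass (0.86 ± 0.24, adjusted p = 0.0503), and it did without Spi-7 animal 5 (adjusted p = 0.0347). Jun itself read 10.74 ± 0.18 in Control and 11.00 ± 0.29 in Spi-7. Of 20 immediate early genes measured, Atf3 itself was the called increase (5%, against 1.05% of all genes) and none was called lower. The median change of this list was -0.13. Fos read 8.49 ± 1.46 in Control and 6.81 ± 0.47 in Spi-7 without passing the test (adjusted p = 0.283). The Atf3 call was lost without Control animal 1 (adjusted p = 0.0565), Control animal 3 (0.0744) or Spi-7 animal 1 (0.056), and with the Gapdh gap in the fit (0.061).

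Ngfr encodes the low-affinity neurotrophin receptor p75, which is shut off in adult motor neurons and returns after their axons are injured. Its levels were 5.27, 5.52, 5.82 and 5.61 in Control, near the low end of the scale, and 9.19, 9.24, 9.17, 8.29 and 6.63 in Spi-7. All 5 Spi-7 animals lay above all 4 Controls, with animal 5 nearest to them. The difference was 2.95 ± 0.65 (7.72-fold; adjusted p = 0.00989), 3.42 ± 0.65 without animal 5 (adjusted p = 0.00293), and 1.96 with the Gapdh gap in the fit, where it did not pass (adjusted p = 0.118). Gfra1, the receptor subunit that binds the survival factor GDNF, read 7.98, 7.89, 7.83 and 8.55 in Control and 9.68, 9.47, 9.32, 8.89 and 8.62 in Spi-7. The groups did not overlap, and the change was 1.14 ± 0.23 (adjusted p = 0.00632). A second Gfra1 probe set rose by 0.86 ± 0.23 (adjusted p = 0.0353). Ngfr and Gfra1 were the called members among 18 receptors and 14 ligands of the neurotrophic families (6.25% called higher), whose median change was 0.03. Ngfr is also a Schwann cell marker. Of 6 such markers measured it was the called 1, with 3 positive and 3 negative changes (median -0.05). Which cells of the pool its rise came from was not tested.

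Mmp3 encodes stromelysin-1, a secreted metalloproteinase that cuts matrix proteins. It read 4.82, 5.49, 4.76 and 5.51 in Control and 8.07, 7.74, 8.37, 6.74 and 6.69 in Spi-7. Every Spi-7 animal was above every Control, and the change of 2.38 ± 0.43 (5.19-fold; adjusted p = 0.00225) kept its call under each of 17 alternative settings. Mmp3 was the called gene among 51 matrix genes (1.96% called higher, against 1.05% of all genes, median change -0.00). Timp1, an inhibitor of such proteases, read above Control in every Spi-7 animal but did not pass (1.20, adjusted p = 0.239). Hapln2, a link protein of the matrix at nodes of Ranvier, lay below Control in every Spi-7 animal (-0.43 ± 0.12, adjusted p = 0.0529), and it passed without Spi-7 animal 5 (adjusted p = 0.0403). Vgf, the precursor of several secreted neuropeptides, was at 9.74, 10.20, 10.43 and 10.31 in Control and at 11.72, 11.87, 11.76, 11.27 and 10.93 in Spi-7. The groups were apart by 1.34 ± 0.33 (adjusted p = 0.0227). This call ended without Control animal 1 or 2 or Spi-7 animal 1, 2 or 3 (adjusted p from 0.0564 to 0.101) and with the Gapdh gap in the fit (0.159).

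The promoters of Mmp3 and Vgf are shown because they were the called-higher genes named here whose window holds a binding motif of the Jun, Fos and Atf families, the family of Atf3. Both are RefSeq sequences of build GRCr8, 300 bases long, from 250 bases before the transcription start to 50 after it, in the direction of transcription. The Mmp3 window lies at chr8:12925031-12925330 on the + strand, and the capitals mark the AP-1 site, whose letters read TGAGTCA in this direction and which begins 71 bases upstream of the start. The Vgf window lies at chr12:25276971-25277270 on the - strand, and the capitals mark the cAMP response element, TGACGTCA, which reads the same on both strands and begins 90 bases upstream. Neither motif contains the other.
Mmp3: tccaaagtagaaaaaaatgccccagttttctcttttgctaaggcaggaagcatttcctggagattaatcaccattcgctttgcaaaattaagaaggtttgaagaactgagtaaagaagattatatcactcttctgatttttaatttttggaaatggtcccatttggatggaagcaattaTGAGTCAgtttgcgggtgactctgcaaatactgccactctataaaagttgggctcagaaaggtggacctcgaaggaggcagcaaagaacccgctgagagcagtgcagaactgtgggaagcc
Vgf: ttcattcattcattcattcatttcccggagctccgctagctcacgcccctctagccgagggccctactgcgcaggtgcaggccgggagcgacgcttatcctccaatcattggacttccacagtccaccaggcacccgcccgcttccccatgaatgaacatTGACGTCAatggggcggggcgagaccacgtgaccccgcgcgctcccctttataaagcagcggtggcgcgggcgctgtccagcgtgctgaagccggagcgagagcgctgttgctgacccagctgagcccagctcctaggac
Over both strands, the AP-1 letters stood in 310 of the 8051 tested genes with a promoter in the table (3.85%), in 1 of 90 called higher (1.11%) and in 3 of 161 called lower (1.86%). The cAMP response element stood in 228 (2.83%), 2 (2.22%) and 6 (3.73%). The genes called higher therefore held these letters no more often than the others did, and these shares are a description without a test.

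**Figure D1:**
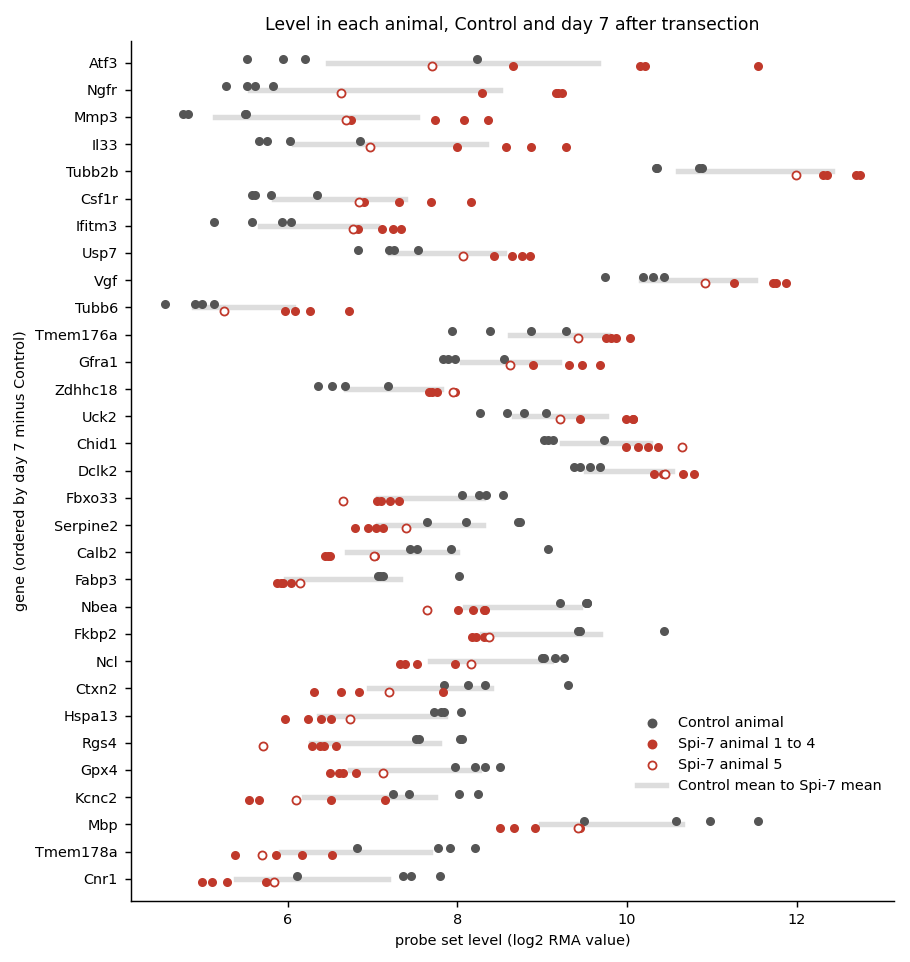
Level of each gene in each animal (x axis, log2 RMA value) for the 15 genes with the largest decreases and the 15 with the largest increases among called genes whose animals did not overlap, and for Atf3, ordered by the day 7 minus Control difference. Points are animals, the open point is Spi-7 animal 5, and the bar joins the group means. Ngfr sits between 5.27 and 5.82 in Control and between 6.63 and 9.24 in Spi-7. Of the Spi-7 animals, animal 5 lies nearest to Control for every increase shown except Zdhhc18, Chid1 and Dclk2.

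Of 46 axon injury response genes measured, 5 were called higher (Atf3, Ngfr, Tubb2b, Gfra1 and Vgf) and none lower, a share of 10.9% against 1.05% of all 9769 genes. The list was chosen with earlier results of these data known, so this share is a description and not a test. The median change of the list was 0.32, against -0.00 for all genes. Of its members 10 lay above Control without overlap, as did 398 of all 9769 genes. Several members spread widely between animals and did not pass. Vip, a neuropeptide, differed by 2.15 ± 0.78 (adjusted p = 0.148), and Sprr1a, a small proline-rich protein of regenerating axons, by 1.20 ± 0.52 (adjusted p = 0.24). When 1 animal was left out, 3 to 8 members were called higher: 3 without Control animal 1 or Spi-7 animal 1, and 8 without Spi-7 animal 5. The fit with the Gapdh gap called 2.

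Among cytoskeleton genes the called changes were increases. Tubb2b, a neuronal beta-tubulin of growing axons, read 10.88, 10.85, 10.35 and 10.35 in Control and 12.70, 12.75, 12.36, 12.32 and 11.99 in Spi-7. The groups were far apart, by 1.82 ± 0.32 (3.52-fold; adjusted p = 0.00207), under each of the 17 settings. Tubb6, another beta-tubulin, was near the low end in Control (4.56 to 5.13) and read 5.25 to 6.72 in Spi-7 (1.16 ± 0.29, adjusted p = 0.0239). Prph rose by 0.78 ± 0.20 (adjusted p = 0.0246), with Control animal 4 (12.71) above Spi-7 animal 5 (12.49). Dync1li2, a light intermediate chain of the dynein motor, rose by 0.34 ± 0.09 (adjusted p = 0.0471). These 4 were the called members of 37 cytoskeleton and transport genes (10.8% called higher, against 1.05% of all genes), whose median change was 0.03. Tubb2b also counts in the axon injury list and Prph in that of motor neuron identity, so the shares are not separate observations. The median level of this list was 9.32, against 6.20 for all genes. Dclk2, a doublecortin-like kinase that binds microtubules, rose by 1.01 ± 0.14 (adjusted p = 0.000168) with no overlap. A second Dclk2 probe set changed by 0.20 ± 0.11 (adjusted p = 0.365), with overlap, so the gene's probe sets disagree. The Tubb6 call was lost without Control animal 2 or 3 or Spi-7 animal 1 or 2 (adjusted p from 0.0621 to 0.0944), that of Prph without Control animal 1, 2 or 3 or Spi-7 animal 1, 2 or 3 (0.0586 to 0.134), and that of Dync1li2 without any animal but Spi-7 animal 4 (0.0554 to 0.167). Tubb6 and Prph were not called with the Gapdh gap in the fit (0.0969 and 0.105). Fitted on the 9 arrays alone, Prph and Dync1li2 were not called (0.0502 and 0.105), and on the 15 arrays of Control, Spi-2 and Spi-7 neither these nor Tubb6 were (0.0805, 0.0791 and 0.059). Dync1li2 was not called with an intensity trend and robust moderation either (0.0747).

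Among immune genes, Il33, an alarm cytokine released by damaged cells, changed most. Its levels were 5.67, 6.02, 5.76 and 6.85 in Control and 9.28, 8.87, 8.57, 8.00 and 6.97 in Spi-7. The groups did not overlap, by a narrow margin between Control animal 4 and Spi-7 animal 5, and the change was 2.27 ± 0.52 (4.81-fold; adjusted p = 0.0127). A second Il33 probe set rose by 1.71 ± 0.42 (adjusted p = 0.021). The first was not called without Control animal 1 or 3 (adjusted p = 0.0554 and 0.0566) or with the Gapdh gap in the fit (0.0505). Csf1r, the receptor of colony-stimulating factor 1 and a marker of microglia and macrophages, read 6.35, 5.61, 5.58 and 5.80 in Control and 8.17, 7.32, 6.90, 7.69 and 6.84 in Spi-7. The groups were apart, by 1.55 ± 0.42 (adjusted p = 0.0409). Tgfb3, a member of the TGF-beta family, rose by 0.88 ± 0.24 (adjusted p = 0.0433). These 3 were called among 74 cytokines, chemokines and their receptors (4.05% called higher, median change 0.07), and none of the 22 chemokines was. Tgfb3 was not called when fitted on the 15 arrays of Control, Spi-2 and Spi-7 (adjusted p = 0.0687).

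Of 35 genes of the interferon response and antigen presentation, 2 were called higher (5.71%, against 1.05% of all genes) and none lower. Ifitm3, which blocks the entry of viruses into cells, read 5.13 to 6.04 in Control and 6.77 to 7.34 in Spi-7 (1.39 ± 0.36, adjusted p = 0.0281). Irf3, the transcription factor that starts interferon production, rose by 0.83 ± 0.22 (adjusted p = 0.0333). Mx1 lay at 1.01 above Control without passing (adjusted p = 0.285) and Isg15 at -0.77 (adjusted p = 0.58). Leaving out 1 animal mostly ended these calls (adjusted p from 0.0524 to 0.17). Csf1r kept its call only without Spi-7 animal 3 or 5, Tgfb3 only without Control animal 4 or Spi-7 animal 2, Ifitm3 only without Control animal 2 or Spi-7 animal 4 or 5, and Irf3 only without Control animal 4 or Spi-7 animal 2 or 3. Lost too were those of Csf1r, Tgfb3 and Ifitm3 with the Gapdh gap in the fit (0.0792 to 0.232).

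Markers of other cells moved alongside. Of 15 microglia and macrophage markers measured, 13 had a positive change and 1, Csf1r, was called, with a median of 0.36. Their summed level on the linear scale ran from 998 to 1412 in Control and from 1514 to 3934 in Spi-7. Cd68 and C1qc lay above Control in every Spi-7 animal (0.80 and 1.18, adjusted p = 0.24 and 0.183), and Aif1 in 4 of 5 (5.25 ± 0.42 in Control, 6.75 ± 1.00 in Spi-7). Itgam and P2ry12, of the same marker list, were low in both groups (5.18 and 5.18 for Itgam, 5.75 and 5.68 for P2ry12). The part of microglia in the changes of Il33, Csf1r, Ifitm3 and Mmp3 was not tested. Gfap, the filament of reactive astrocytes, read 8.87 ± 0.62 in Control and 10.21 ± 0.61 in Spi-7 (1.33, adjusted p = 0.0967), while 9 of 10 astrocyte markers had a negative change and Aldoc was called lower. Markers of T cells, B cells and neutrophils were near the low end in both groups: their summed level over 10 genes ran from 331 to 421 in Control and from 340 to 420 in Spi-7.

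**Figure D2:**
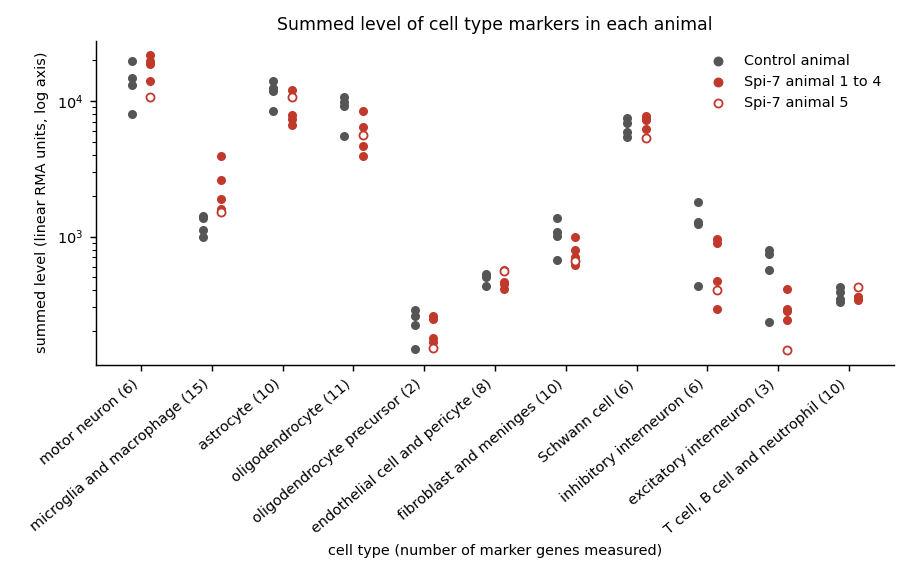
Summed level of the marker genes of each cell type (y axis, linear RMA units on a log axis) in each Control and Spi-7 animal, with the number of markers measured in brackets. For microglia and macrophages all 5 Spi-7 animals (1514 to 3934) lie above all 4 Controls (998 to 1412), and for the other cell types the animals overlap.

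Among genes that fell, the largest decrease was that of Vsnl1, the neuronal calcium sensor visinin-like 1, singled out here after its values were seen. It read 10.32, 9.95, 9.44 and 8.08 in Control and 6.79, 6.72, 7.18, 8.27 and 6.65 in Spi-7. Control animal 4 lay below Spi-7 animal 4, so the groups overlapped. The change was -2.32 ± 0.40 (adjusted p = 0.00158). It was called under each of the 17 settings, and a second Vsnl1 probe set fell by 0.85 ± 0.20. Cnr1, the cannabinoid receptor CB1, read 7.36, 7.45, 7.79 and 6.11 in Control and 4.99, 5.10, 5.28, 5.74 and 5.84 in Spi-7. The groups did not overlap, and the change of -1.79 ± 0.27 (3.45-fold; adjusted p = 0.000374) brought it to the low end of the scale. A second Cnr1 probe set was low in both groups (5.37 and 5.39).

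Calb2, the calcium-binding protein calretinin, fell by 1.30 ± 0.29 (adjusted p = 0.0105). It read 9.07, 7.93, 7.52 and 7.44 in Control and 6.44 to 7.03 in Spi-7, and its call ended without Control animal 1 (-0.94, adjusted p = 0.0883). Mbp, myelin basic protein, is made by oligodendrocytes. It read 11.55, 10.58, 10.98 and 9.49 in Control and 8.50, 8.91, 8.67, 9.45 and 9.43 in Spi-7. Control animal 4 came within a small distance of Spi-7 animals 4 and 5, but no animals crossed, and the change was -1.66 ± 0.32 (adjusted p = 0.00351). A further pair of Mbp probe sets also had negative changes that did not pass (-0.37 and -0.56, adjusted p = 0.321 and 0.054).

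Control animal 4 was the lowest Control for Vsnl1, Cnr1, Mbp and Tmem178a, and its summed oligodendrocyte, astrocyte and inhibitory interneuron markers were the lowest of the 4 as well, while its summed motor neuron markers (19879) were the highest. Of 11 oligodendrocyte markers, 10 had a negative change (median -0.32) and Mbp was called. Their summed level ran from 5506 to 10709 in Control and from 3931 to 8458 in Spi-7. The inhibitory interneuron markers Gad1 and Slc32a1, which make and package GABA, differed by -1.44 and -1.51 (adjusted p = 0.273 and 0.0514). Slc17a6, the glutamate transporter of excitatory interneurons, differed by -1.35 (adjusted p = 0.11). The full lists moved less: of 6 inhibitory markers 4 had a negative and 2 a positive change (median -0.225). Of 3 excitatory markers 2 had a negative and 1 a positive change (median -0.23). The summed level of 6 inhibitory markers ran from 428 to 1799 in Control and from 292 to 962 in Spi-7. The part of these cells in the lower values of Vsnl1, Cnr1, Calb2 and Mbp was not tested.

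The called members of the potassium, calcium and chloride channel lists were lower at day 7. Of 29 voltage-gated potassium channel genes, 3 were called lower (10.3%, against 1.82% of all genes) and none higher. Kcnc2 (Kv3.2), a channel of fast spiking, read 8.02, 7.43, 8.24 and 7.24 in Control and 5.54, 6.51, 5.67, 7.15 and 6.09 in Spi-7. The groups were apart by a narrow margin, and the change was -1.54 ± 0.42 (adjusted p = 0.0386). The other 3 Kcnc2 probe sets were low in both groups. Kcna1 (Kv1.1), a channel of the axon that damps excitability, read 10.37 to 10.71 in Control and 9.50 to 9.95 in Spi-7 (-0.82 ± 0.20, adjusted p = 0.0215). Kcna4 (Kv1.4) fell by 0.70 ± 0.18 (adjusted p = 0.0315). None of 25 calcium-activated, inward rectifier and leak channels was called, and the median of all 54 potassium channels was 0.00.

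Cacng2 encodes stargazin, which carries AMPA receptors to the synapse and is listed with the calcium channel subunits. It read 8.32, 8.74, 8.24 and 8.46 in Control and 5.73, 6.11, 6.52, 7.27 and 8.55 in Spi-7. Animal 5 lay within the Control range and the other 4 below it. The change was -1.61 ± 0.42 (adjusted p = 0.0315), and -2.03 ± 0.37 without animal 5 (adjusted p = 0.00273). The call ended in the fit of the 9 arrays alone (adjusted p = 0.0744), in that of the 15 arrays of Control, Spi-2 and Spi-7 (0.0641) and after a further quantile normalization (0.0636). Cacng2 was the called member of 21 calcium channel genes (4.76%). Cacna1a, the pore of P/Q-type channels, differed by -0.32 ± 0.12 (adjusted p = 0.16). Of 9 sodium channel genes none was called. Scn9a (Nav1.7) read 5.50, 6.95, 5.81 and 6.82 in Control and 8.73, 8.93, 8.50, 7.13 and 6.10 in Spi-7, where animal 5 again lay within the Control range. The difference was 1.61 ± 0.51 (adjusted p = 0.088), and 2.05 ± 0.48 without animal 5 (adjusted p = 0.0155). Scn3b, an auxiliary subunit, differed by 1.00 ± 0.43 (adjusted p = 0.242).

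Slc12a2 (NKCC1), the transporter that brings chloride into neurons, read 10.18, 9.97, 10.09 and 9.33 in Control and 8.63, 9.09, 8.91, 9.43 and 8.56 in Spi-7. Control animal 4 lay below Spi-7 animal 4, and the change was -0.97 ± 0.25 (adjusted p = 0.0313). Clcn4, a chloride-proton exchanger of endosomes, fell by 0.99 ± 0.25 (adjusted p = 0.024) with no overlap. A second Clcn4 probe set was low in both groups (5.02 and 5.00) and changed by -0.02. Slc12a2 and Clcn4 were the called members of 17 chloride channels and transporters (11.8% called lower). Gabbr2, a subunit of the metabotropic GABA receptor, read 7.93 to 8.92 in Control and 7.52 to 7.86 in Spi-7 (-0.72 ± 0.18, adjusted p = 0.0217). A second Gabbr2 probe set was low in both groups (5.21 and 5.12) and changed by -0.09. Gabbr2 and Cnr1 were called among 20 inhibitory receptors (10.0% lower, against 1.82% of all genes; median 0.03). None of 21 glutamate receptor genes and none of 38 receptors for serotonin, noradrenaline, dopamine and acetylcholine was called; Htr7, a serotonin receptor, had the smallest p of the latter (-0.35 ± 0.11, adjusted p = 0.0833, and 0.0236 without Spi-7 animal 5). Htr2b, another serotonin receptor, differed by 0.43 ± 0.16 (adjusted p = 0.179). In the glutamate receptor list, which also holds the scaffold protein Dlg4, the smallest p belonged to Grina and Dlg4 (-0.39 ± 0.20 and -0.32 ± 0.19, adjusted p = 0.353 and 0.437). None of 24 synaptic vesicle genes was called, among them Sv2a (-0.46 ± 0.15, adjusted p = 0.0871) and Pclo (0.29 ± 0.10, adjusted p = 0.129). The channel, transporter and Gabbr2 calls were sensitive to single animals (adjusted p from 0.0501 to 0.15 where lost). Kcna1 lost its call without Control animal 1 or 4 or Spi-7 animal 1 or 2, and Gabbr2 without Control animal 1 or 3 or Spi-7 animal 1 or 2. The others kept theirs only without certain animals: Kcnc2 without Control animal 4 or Spi-7 animal 4, Kcna4 without Control animal 4 or Spi-7 animal 3 or 5, Cacng2 without Spi-7 animal 4 or 5, Clcn4 without Spi-7 animal 3, 4 or 5, and Slc12a2 without Control animal 4 or Spi-7 animal 2 or 4. After a further quantile normalization Kcnc2 and Slc12a2 were not called (0.053 and 0.0664). With the Gapdh gap in the fit Slc12a2 alone of these 7 was called, and the others had adjusted p from 0.0745 to 0.213.

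Rgs4, which speeds the end of G protein signals, read 8.05, 7.51, 8.04 and 7.55 in Control and 6.56, 6.42, 6.39, 6.28 and 5.71 in Spi-7. All Spi-7 animals were below all Controls, by 1.51 on average (-1.51 ± 0.31, adjusted p = 0.00632), and this held under each of the 17 settings. A second Rgs4 probe set was low in both groups (5.39 and 5.47). Tmem178a, a transmembrane protein, read 8.21, 7.78, 7.92 and 6.82 in Control and 6.17, 5.86, 5.37, 6.52 and 5.69 in Spi-7. Its groups did not overlap and differed by 1.76 (-1.76 ± 0.35, adjusted p = 0.00469). Nbea, neurobeachin, which takes part in membrane traffic to synapses, fell by 1.35 ± 0.30 (adjusted p = 0.0104), and with the Gapdh gap in the fit it did not pass (adjusted p = 0.105). Serpine2, an inhibitor of thrombin, fell by 1.24 ± 0.30 (adjusted p = 0.0184), a call lost without Control animal 1 or 3 or Spi-7 animal 1 (0.0524 to 0.0933), with the Gapdh gap in the fit (0.0599) and in the fit of the 15 arrays of Control, Spi-2 and Spi-7 (0.0564). Ctxn2, cortexin 2, read 7.84 to 9.30 in Control and 6.31 to 7.84 in Spi-7, where the nearest animals all but met (-1.43 ± 0.31, adjusted p = 0.00896; 0.0674 without Control animal 1). Fbxo33, a substrate adaptor of ubiquitin ligases, read 8.05 to 8.54 in Control and 6.65 to 7.32 in Spi-7 (-1.24 ± 0.28, adjusted p = 0.0114; 0.0566 without Control animal 3 and 0.105 with the Gapdh gap in the fit).

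Motor neuron identity genes moved in both directions. Uts2, the peptide urotensin 2 that motor neurons make, read 10.50, 11.22, 11.64 and 11.65 in Control and 12.12, 12.39, 12.14, 12.36 and 12.13 in Spi-7. Every Spi-7 animal was above every Control (0.98 ± 0.20, adjusted p = 0.00632). Hoxa10, a Hox factor of the caudal cord, read 7.10 to 8.09 in Control and 6.15 to 6.83 in Spi-7 (-1.15 ± 0.25, adjusted p = 0.00933). With Prph, these were the called members of 22 genes (median -0.02). That is 4.55% called lower and 9.09% higher, against 1.82% and 1.05% of all genes. The Prph call was sensitive to single animals, as given above. Slc5a7 lay below Control in every Spi-7 animal without passing (-1.04 ± 0.32, adjusted p = 0.0729), as did Esrrg, an orphan receptor of gamma motor neurons (-1.20 ± 0.36, adjusted p = 0.0689). Uts2 was not called without Control animal 1 (0.73, adjusted p = 0.0519) nor Hoxa10 without Control animal 2 (-0.96, adjusted p = 0.0606).

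Of the chaperones and folding enzymes, the called ones were all lower at day 7. Hspa13, an Hsp70-like protein of microsomes, read 7.72, 8.04, 7.81 and 7.84 in Control and 6.24, 6.39, 6.51, 5.97 and 6.74 in Spi-7. The groups lay far apart, and the change was -1.48 ± 0.21 (2.79-fold; adjusted p = 0.000168). Fkbp2, an endoplasmic reticulum prolyl isomerase, read 10.44, 9.45, 9.42 and 9.44 in Control and 8.31, 8.18, 8.37, 8.22 and 8.37 in Spi-7. Both groups were tight apart from Control animal 1, and the change was -1.40 ± 0.17 (adjusted p = 2.17e-05). A second Fkbp2 probe set of higher level changed by -0.19 ± 0.22 (adjusted p = 0.754). Txndc12 and Hsp90b1 (GRP94) were also called lower (-1.06 ± 0.28 and -0.78 ± 0.21). With Hspa13 they were the 3 called of 24 chaperones and folding enzymes of the endoplasmic reticulum (12.5%, against 1.82% of all genes), a list in which Fkbp2 is represented by its probe set of higher level and so does not count as called. None of 16 stress-signalling genes was called, among them Ddit3 (-0.56, adjusted p = 0.169). Txndc12 kept its call only without Control animal 4 or Spi-7 animal 4, and Hsp90b1 only without Control animal 4 or Spi-7 animal 2 (adjusted p from 0.053 to 0.133 without the others), and neither was called with the Gapdh gap in the fit (0.225 and 0.175). After a further quantile normalization Hsp90b1 had an adjusted p of 0.0525.

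In the list of cytosolic chaperones, which also holds the mitochondrial Hspa9, Hspd1 and Hspe1, 6 of 38 genes were called lower (15.8%, against 1.82% of all genes) and none higher, with a median change of -0.16. The median level of this list was 8.48, against 6.20 for all genes. The chaperonin and prefoldin subunits, which fold newly made actin and tubulin, were 11 of the 38, of which 3 were called and 10 had a negative change (median -0.47). Pfdn5 read 7.79, 7.23, 7.04 and 7.61 in Control and 6.56, 6.79, 6.57, 6.67 and 6.80 in Spi-7. The groups did not overlap (-0.74 ± 0.15, adjusted p = 0.00632). Pfdn2 fell by 0.60 ± 0.13 (adjusted p = 0.00933), and Tcp1 was the third called subunit (-0.80, adjusted p = 0.0217). The Tcp1 call was lost with the Gapdh gap in the fit (adjusted p = 0.142) and without Control animal 3 (0.0972), Control animal 4 (0.051) or Spi-7 animal 1 (0.0528). Hspe1, the lid of the mitochondrial chaperonin, fell by 0.68 ± 0.15 (adjusted p = 0.0114). Hsph1, of the Hsp110 family, fell by 0.69 ± 0.15 (adjusted p = 0.00999) from 5.71 to 5.02, at the low end of the scale. With the Gapdh gap in the fit Pfdn2, Hspe1 and Hsph1 were not called (adjusted p from 0.0548 to 0.105), nor without Control animal 1 (Pfdn2, 0.0633), 3 (Hspe1, 0.0565) or 2 (Hsph1, 0.0519).

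Ncl, nucleolin, the abundant protein of the nucleolus that serves ribosome assembly, read 9.26, 9.02, 9.002 and 9.15 in Control and 7.33, 7.53, 7.39, 7.98 and 8.16 in Spi-7. The groups were apart by 1.43 (-1.43 ± 0.18, 2.70-fold; adjusted p = 2.17e-05). The rest of the nucleolar list did not move with it: of 41 genes, Ncl was the called decrease and Surf6 the called increase (0.56 ± 0.15, adjusted p = 0.0433), and the median was 0.04. Each was 2.44% of the list, against 1.82% of all genes called lower and 1.05% called higher. Of 38 ribosomal proteins, Rpl14 and Rpl23 fell (-0.76 ± 0.17 and -0.46 ± 0.12) and Rps28 rose (0.62 ± 0.14, adjusted p = 0.00999), and the median was -0.14. This is 5.26% of the list called lower and 2.63% called higher, against the same shares of all genes. In the proteasome, the ATPase subunit Psmc5 read 9.61, 9.38, 9.26 and 9.51 in Control and 8.58, 8.41, 8.28, 8.37 and 8.27 in Spi-7 (-1.06 ± 0.16, adjusted p = 0.000374), and the ubiquitin receptor Psmd4 fell by 0.82 ± 0.18 (adjusted p = 0.00931). These were the called members of 34 (5.88% called lower, median -0.04). Surf6 kept its call only without Control animal 4 or Spi-7 animal 4 or 5 (adjusted p from 0.0706 to 0.176 without the others). Rpl23 lost it without Control animal 1 or 3 or Spi-7 animal 3, 4 or 5 (0.0514 to 0.126), and Rpl14 and Rps28 without Control animal 3 (0.056 and 0.0547). With the Gapdh gap in the fit Surf6, Rpl14 and Rps28 were not called (0.0817 to 0.241). Surf6 was not called in the fits of the 9 arrays alone (0.0869), of the 15 arrays of Control, Spi-2 and Spi-7 (0.0588) or with an intensity trend and robust moderation (0.0508), and Rpl23 was not in the fit of those 15 arrays (0.0775), with the trend (0.051) or after a further quantile normalization (0.164).

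Usp7, which removes ubiquitin from p53 and other proteins, went the other way at 1 of its probe sets. That set read 6.83, 7.25, 7.20 and 7.54 in Control and 8.44, 8.76, 8.65, 8.86 and 8.06 in Spi-7. The groups did not overlap (1.35 ± 0.24, adjusted p = 0.00172). The other 3 Usp7 probe sets changed by 0.03 to 0.15 and were not called, so the gene's probe sets disagree. Chid1, a chitinase-like protein of lysosomes, rose by 1.03 ± 0.23 (adjusted p = 0.00921), Zdhhc18, which attaches palmitate to proteins, by 1.13 ± 0.23 (0.00632), and Uck2, a uridine-cytidine kinase, by 1.08 ± 0.25 (0.0133). Tmem176a, a membrane protein of immune and other cells, read 7.94 to 9.28 in Control and 9.43 to 10.04 in Spi-7 (1.16 ± 0.32, adjusted p = 0.0443). With the Gapdh gap in the fit Zdhhc18, Uck2 and Tmem176a were not called (0.0625, 0.0874 and 0.215). Uck2 lost its call without Control animal 1 or 3 (0.075 and 0.0547), and Tmem176a kept its call only without Control animal 4 or Spi-7 animal 5.

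Of 65 oxidative phosphorylation subunits, 10 were called lower and none higher (15.4%, against 1.82% of all genes), 54 had a negative change, and the median change was -0.37. The median level of the list was 9.82, against 6.20 for all genes, and genes of like level were not compared. In 25 of the subunits every Spi-7 animal lay below every Control, as in 562 of all 9769 genes. By complex, 7 of 32 subunits of complex I were called (median -0.40), none of 4 of complex II (-0.44), none of 6 of complex III with cytochrome c (-0.33), 1 of 10 of complex IV (-0.07) and 2 of 13 of the ATP synthase (-0.35). With a further quantile normalization the list had 9 calls and a median of -0.27, with the Gapdh gap in the fit 6 and -0.34, and without Spi-7 animal 5, 7 and -0.31. Leaving out 1 of the other animals gave 3 to 7 calls, with the fewest without Control animal 1 (3), Control animal 3 (4), Spi-7 animal 1 (4) and Spi-7 animal 2 (5), and 6 without Spi-7 animal 3 or 4.

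The changes of single subunits were small. Cox7b, a small subunit of cytochrome c oxidase, read 10.57, 10.77, 10.59 and 10.51 in Control and 9.86, 10.04, 9.95, 9.86 and 9.63 in Spi-7 (-0.74 ± 0.13, adjusted p = 0.00225). Ndufb3, of complex I, read 13.002, 12.58, 12.85 and 12.67 in Control and 12.28, 12.15, 12.22, 12.01 and 12.14 in Spi-7 (-0.62 ± 0.12, adjusted p = 0.00557). Neither overlapped, and both kept their calls under each of the 17 settings. Ndufb9 read 11.03 to 11.61 in Control and 10.60 to 10.65 in Spi-7 (-0.68 ± 0.14, adjusted p = 0.00733). Its call was lost without Control animal 1 (0.0519). Ndufb5 fell by 0.52 ± 0.11 (adjusted p = 0.00635, and 0.076 with the Gapdh gap in the fit). The other 6 called subunits fell by 0.44 to 0.93 with adjusted p from 0.0337 to 0.0475, and each lost its call under several settings. With the Gapdh gap in the fit Ndufb7 alone of these 6 was called, and Atp5f1c, Ndufv2, Atp5pb, Ndufa6 and Ndufb11 were not (adjusted p from 0.0841 to 0.219).

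**Figure D3:**
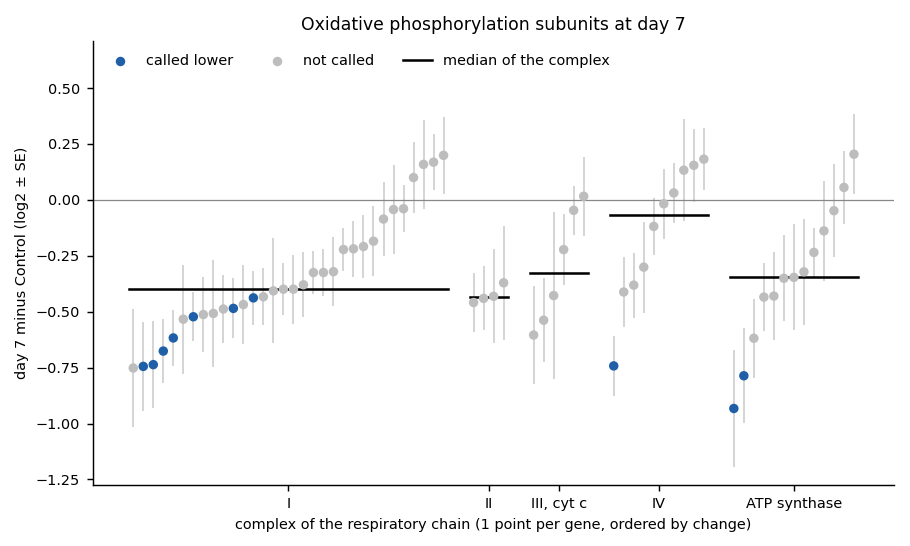
Day 7 minus Control (y axis, log2, bars are the SE of the fit) for each of 65 oxidative phosphorylation subunits, grouped by complex along the x axis and ordered by change within it. The black line is the median of the complex, which is -0.40 for complex I and -0.07 for complex IV, and the 10 blue points are the called genes.

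Upstream of the chain, Suclg1, a subunit of succinyl-CoA ligase, read 9.31, 8.64, 8.65 and 9.04 in Control and 8.17, 8.20, 8.25, 7.85 and 8.12 in Spi-7. No animals crossed (-0.79 ± 0.16, adjusted p = 0.0048). It was the called member of 19 tricarboxylic acid cycle genes, 16 of which had a negative change (median -0.20); Pdhb, of the pyruvate dehydrogenase complex, did not pass (-0.63 ± 0.19, adjusted p = 0.0689). In glycolysis 1 of 14 genes was called, Aldoc, an aldolase that is also an astrocyte marker (-0.82 ± 0.19, adjusted p = 0.0133; 0.0696 without Control animal 1), and the median was 0.05. Pfkl, a phosphofructokinase, differed by 0.38 ± 0.12 (adjusted p = 0.094). The share called lower was 5.26% of the tricarboxylic acid cycle list and 7.14% of the glycolysis list, against 1.82% of all genes. Fabp3, which carries fatty acids in the cytosol, fell by 1.34 ± 0.24 (adjusted p = 0.00207).

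Gpx4, the glutathione peroxidase that repairs oxidized membrane lipids, read 8.51, 8.32, 7.97 and 8.21 in Control and 6.61, 6.49, 6.81, 6.65 and 7.12 in Spi-7. No animals crossed, and the change was -1.52 ± 0.18 (2.86-fold; adjusted p = 2.17e-05). No other of 33 antioxidant genes was called (3.03% called lower, against 1.82% of all genes). Sod1, superoxide dismutase 1, read 11.83 to 12.13 in Control and 10.75 to 11.84 in Spi-7 (-0.63 ± 0.21, adjusted p = 0.113). Of 21 cholesterol synthesis genes, 2 were called lower (9.52%). Cyp51, lanosterol demethylase, read 10.74, 10.72, 10.63 and 10.58 in Control and 9.72, 9.74, 9.26, 9.79 and 9.92 in Spi-7 (-0.98 ± 0.20, adjusted p = 0.0058), with a second probe set at 0.04. Insig2, which holds the pathway's regulator in the endoplasmic reticulum, fell by 0.72 ± 0.15 (adjusted p = 0.00632). A second Insig2 probe set changed by -0.55 ± 0.16 and was not called (adjusted p = 0.0547). Cyp51 was not called with the Gapdh gap in the fit (adjusted p = 0.0615). None of 20 cell division genes was called; Prc1 read 6.02 to 6.28 in Control and 6.46 to 8.01 in Spi-7 (0.72 ± 0.27, adjusted p = 0.165), and Aurka, a mitotic kinase, differed by 0.24 ± 0.11 (adjusted p = 0.268).

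**Figure D4:**
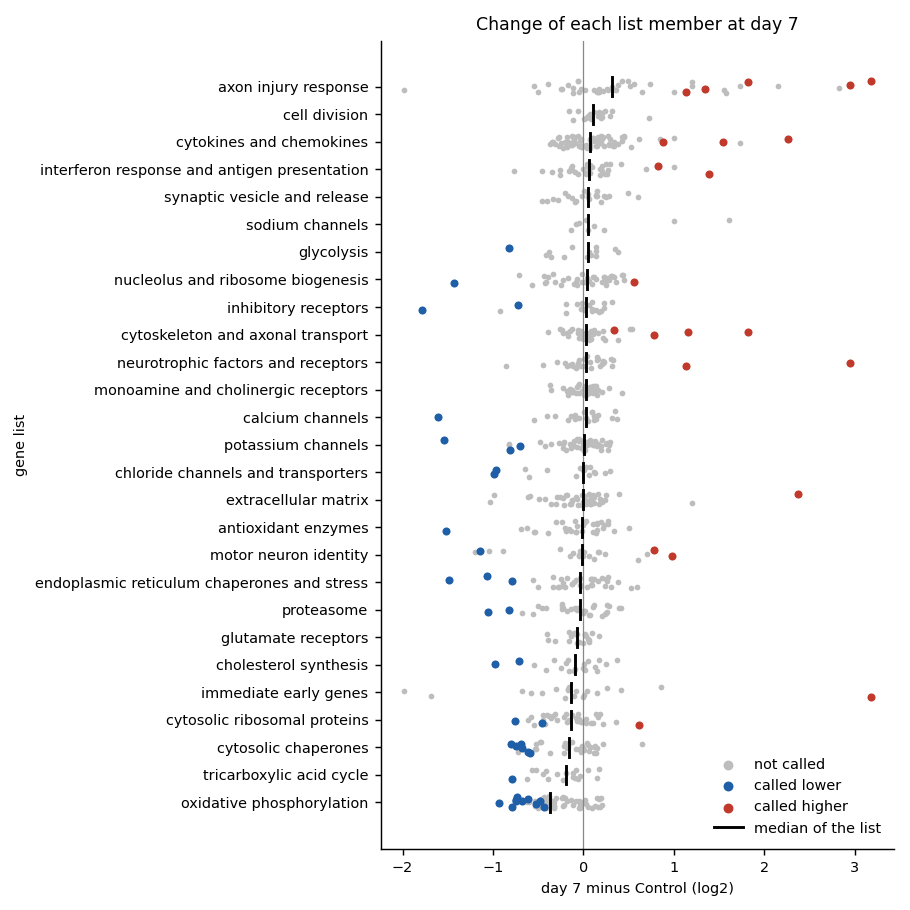
Day 7 minus Control (x axis, log2) of every measured member of each gene list, 1 point per gene, with called genes in colour and a black bar at the median of the list. Axon injury response genes have the highest median (0.32), with 5 called increases, and oxidative phosphorylation the lowest (-0.37), with 10 called decreases.

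Whether day 7 differed from the acute phase was asked by setting Spi-7 against Spi-2. No probe set passed (0% of 12913; limma, lowest adjusted p = 0.999), 460 had an unadjusted p under 0.05, and every alternative setting also gave 0. The median SE of this difference was 0.14, and a p that misses the threshold does not show that the days were alike. For the genes above, the day 7 minus day 2 difference was -0.77 ± 0.66 for Atf3, 0.31 ± 0.59 for Ngfr, 0.46 ± 0.39 for Mmp3, -0.81 ± 0.31 for Tmem178a, 0.49 ± 0.29 for Mbp and -0.16 ± 0.17 for Gpx4. Both days share the Control animals, and their changes from Control are given side by side. Atf3 stood at 3.95 above Control at day 2 and 3.18 at day 7, Csf1r at 2.02 and 1.55, Mbp at -2.14 and -1.66, and Tmem178a at -0.95 and -1.76.

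**Figure D5:**
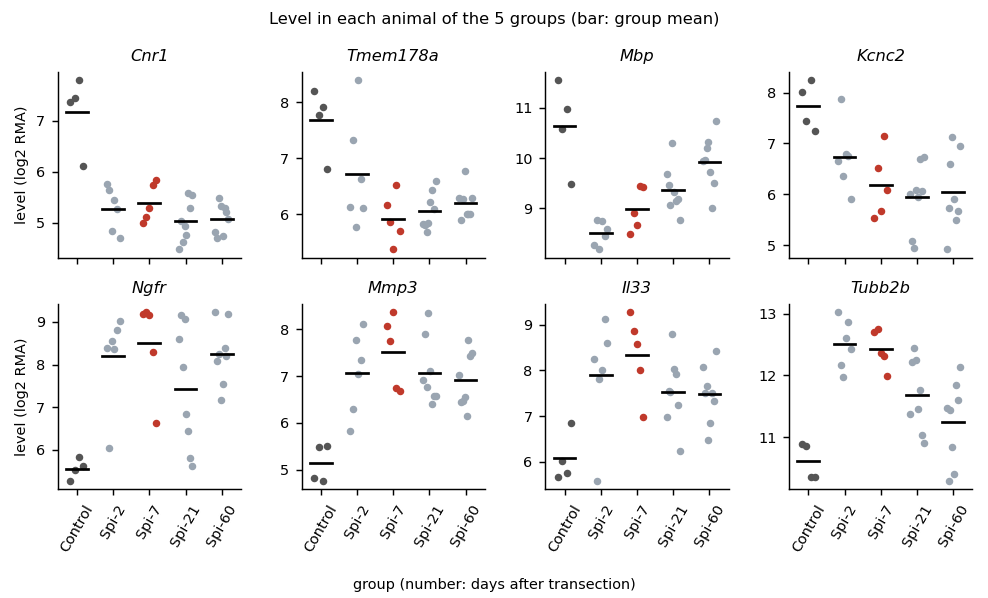
Level (y axis, log2 RMA value) in each animal of the 5 groups along the x axis, for the 4 genes with the largest decreases and the 4 with the largest increases whose Control and Spi-7 animals did not overlap. Spi-7 animals are red, Control animals dark grey, and the bar is the group mean. The mean of Cnr1 is between 5.03 and 5.39 in the 4 injured groups and 7.18 in Control, and the mean of Mbp is 8.50 at day 2, 8.99 at day 7 and 9.93 at day 60; the Spi-21 and Spi-60 arrays come from an earlier study.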

How the data were processed

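Tail motor neurons of 31 rats were profiled on Affymetrix rat expression arrays after 2 rounds of RNA amplification; Control and Spi-7 (4 and 5 arrays) are compared here, grouped by the sample titles. The deposited values are log2 expression values that the authors made: probe sets without an Ensembl annotation were dropped, and background correction, quantile normalization and RMA summaries (RMA is named in the submitters' processing notes) were followed by a second correction and normalization. No scanner files were used, so these steps were not repeated, and the number of arrays limits the precision. Group means of the 31 arrays and the contrast Spi-7 minus Control came from 1 linear model (limma 3.58.1, R 4.3.3), in which the 5 groups share the variance estimate; a probe set was called at a Benjamini-Hochberg adjusted p under 0.05 over 12913 probe sets. The ± after a difference is the SE of the fit and after a level the SD over animals. Values of different probe sets are not compared with each other. Exact permutation tests were two-sided; 5 against 4 cannot give a p below 0.0159.

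Genes were named from the platform annotation (11880 probe sets with 1 symbol, 320 with several, 713 with none), and the entrez IDs of 11852 matched the RefSeq gene table. In lists and markers a gene is represented by 1 probe set, that with the highest mean. The text names the 15 largest changes each way among called probe sets without overlap, and the 2 to 4 list members with the smallest p; Vsnl1, uncalled genes given for context and marker genes were chosen after their values were seen. The lists, members and rules were chosen with earlier results of these data known. Each result was recomputed under 17 alternative settings (other sets of arrays, normalization, filter, moderation, weights, the Gapdh covariate, a replicate block and each animal left out), and at an adjusted p under 0.02. The fit was tested on simulated data with known changes. Replicate numbers did not pair the animals: deviations from the group means of same-numbered Control and Spi-7 arrays correlated between -0.32 and 0.08.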

Additional observations from a re-analysis of the deposited data

Results flagged for a closer look

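In 6 of 164 groups of values the highest or lowest animal stood far from the others by Dixon's criterion, and chance flags about 1 group in 20. Fkbp2 read 10.44 in Control animal 1, and Fabp3 read 8.021 in the same animal, both far above the other Controls. Nbea read 9.21 in Control animal 2, below the others, which agreed closely. Chid1, a chitinase-like protein, rose by 1.03 ± 0.23 at day 7 and read 9.728 in Control animal 4, above the other Controls. Txndc12 read 5.634 in Spi-7 animal 5, below the other 4. The interquartile range of the Spi-7 animal 5 array, 1.754, was the lowest of its group.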

How the results depend on the processing

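No called probe set changed sign under any of the 17 settings. The counts of probe sets lower and higher (216 and 118 as reported) were 343 and 181 with the 9 arrays alone, 835 and 695 with array weights, 131 and 59 with the Gapdh 3′ to 5′ gap as a covariate and 114 and 52 at an adjusted p under 0.02; leaving out 1 animal gave 100 to 210 lower and 47 to 147 higher. The lowest counts came without Control animal 3 (100 and 47), Control animal 1 (119 and 49), Control animal 2 (139 and 61), Spi-7 animal 1 (139 and 63), Spi-7 animal 2 (145 and 62) and Spi-7 animal 3 (163 and 70). Increases were 35.3% of the calls, 45.6% after a further quantile normalization (168 lower, 141 higher) and 45.4% with array weights. The cause of these shifts was not tested.

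Of the 30 genes named for the size of their change, 17 kept their call with the Gapdh covariate and 20 to 29 when 1 animal was left out. Of the 63 called probe sets that the naming rule gives, 22 kept it under every setting, among them Cnr1, Mbp, Gpx4, Ncl, Mmp3, Tubb2b, Cox7b and Ndufb3. The oxidative phosphorylation list had 3 to 27 called decreases over the settings, most with array weights, and no called increase. With the replicate number as a block there were 158 lower and 81 higher probe sets; the numbers do not pair the animals. The comparison of day 7 with day 2 gave 0 calls under every setting. Low probe sets, near 5, limit what a decrease can show.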
